A study of Mus musculus with 4 samples.

Results

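The 10 genes described here encode forkhead transcription factors: the lineage factor Foxp3 of regulatory T cells with its relatives Foxp1, Foxp2 and Foxp4, the Foxo factors Foxo1, Foxo3 and Foxo4, the pair Foxk1 and Foxk2, and Foxm1. They were chosen by symbol from the 50600 genes of the deposited count tables, with earlier results of these data known. The other 34 forkhead genes of the tables were kept for comparison. RNA was measured in 4 libraries of primary regulatory T cells from mice of the C57BL/6NJ strain, which form 1 group, so no other cell type, genotype or treatment stands against them. The labels give each library its own biosample and all of them 1 donor record, leave age and sex without a value, and link a CD4+ T cell differentiation protocol, which was not read for this work. The names of the aligned files carry the words activated and 48h. Since the animals or cultures behind the biosamples are not named, p-values here cover the spread between 4 samples, which may be partly technical.

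Forkhead factors share a winged helix DNA-binding domain and differ in how they are controlled. Foxp factors carry a leucine zipper through which they pair with themselves or each other, and Foxp3 is needed for the development and function of regulatory T cells. Foxo factors leave the nucleus when the kinase Akt phosphorylates them, which links them to receptor and growth factor signals, and in T cells they act on survival, homing and the Foxp3 locus. Foxk factors bind chromatin complexes such as Sin3 and the deubiquitinase Bap1, and Foxm1 drives genes of the G2 and M phases of the cell cycle.

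A stretch of the sequence coding for the DNA-binding domain is shown for 8 of these genes, to show how far close relatives resemble each other. Those of Foxp1 and Foxp2, and pairs with them, are not given here. Each line gives 60 coding bases from 5′ to 3′ on the gene's own strand, read from the mm10 reference transcripts of GENCODE M21. Capitals mark the 15 bases (5 codons) for arginine, histidine, asparagine, leucine and serine in the helix that contacts DNA.
Foxp3: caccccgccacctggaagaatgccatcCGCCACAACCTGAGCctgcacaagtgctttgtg
Foxp4: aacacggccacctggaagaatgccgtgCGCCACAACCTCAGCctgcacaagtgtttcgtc
Foxo1: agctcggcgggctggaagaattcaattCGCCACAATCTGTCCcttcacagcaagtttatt
Foxo3: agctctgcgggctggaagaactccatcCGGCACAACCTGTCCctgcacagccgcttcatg
Foxo4: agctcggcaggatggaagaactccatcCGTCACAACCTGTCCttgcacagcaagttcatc
Foxk1: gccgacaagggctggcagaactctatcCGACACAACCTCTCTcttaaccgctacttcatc
Foxk2: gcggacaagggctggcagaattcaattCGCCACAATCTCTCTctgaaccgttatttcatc
Foxm1: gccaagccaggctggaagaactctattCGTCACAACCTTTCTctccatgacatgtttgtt

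The 8 genes spell these 5 codons in 8 different ways. Foxp3 and Foxp4 were identical at 51 of the 60 bases, Foxk1 and Foxk2 at 51, Foxo3 and Foxo4 at 51, Foxo1 and Foxo4 at 49 and Foxo1 and Foxo3 at 48. Between Foxp3 and the 6 genes outside its subfamily the number ran from 32 with Foxk2 to 43 with Foxo3. Across the longest protein-coding transcripts of the 28 pairs of these genes, the longest run of identical bases was 38, between Foxo1 and Foxo3, and for Foxp3 it was 18 bases, with Foxp4. In each of the 8 genes an exon junction falls after base 18 of the stretch, so its bases come from both sides of an intron. For Foxp3 it joins exon 10 to exon 11 within chrX:7592734-7592941 (plus strand). For Foxp4 it joins exon 13 to exon 14 within chr17:47871310-47874652 (minus strand), and for Foxo1 exon 1 to exon 2 within chr3:52269405-52345080 (plus strand).

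The libraries held 43821767, 58696937, 73819468 and 52005209 counted fragments in replicates 1 to 4. Levels are given in TPM (fragments per base of exon, scaled so that the genes of a library sum to the same total), and expressed means that every one of the 4 libraries reached a TPM of 1. The labelled cell type was checked against its markers. All 7 regulatory T markers beside Foxp3 and all 7 pan T markers were expressed, led by the interleukin 2 receptor chain Il2ra at 1488 ± 19.4 TPM (SD, n = 4). The lowest regulatory T marker was Ikzf2 at 13.2 ± 1.99 TPM, which is below the median of 28.6 TPM over expressed genes. Sex-linked transcripts differed between the libraries. The X-silencing RNA Xist stood at 172, 145, 0.255 and 0.367 TPM in replicates 1 to 4, and the Y-linked Eif2s3y at 0.0761, 0.0836, 48.3 and 57.7. Levels as opposite as these are not those of 1 animal, although the labels give 1 donor record, so each SD and p between libraries may include differences between animals. Markers of other cells were low. Of the B cell markers 2 of 6 were expressed (summed level 6.38 to 10.7 TPM per library), of the myeloid markers 1 of 6 (1.15 to 2.23 TPM, with Lyz2 at 0 counts), of the CD8 and NK markers 1 of 7 (10.8 to 15.3 TPM, with Ncr1 at 0 counts) and of the stromal and epithelial markers 1 of 6 (8.03 to 11.0 TPM, with Krt8 at 0 counts). The B cell markers expressed were Cd79b at 3.11 ± 0.466 TPM and Igkc at 4.89 ± 1.49. In the other lists they were Adgre1 (myeloid) at 1.30 ± 0.328, Cd8b1 (CD8 and NK) at 11.7 ± 1.75 and Pecam1 (stromal and epithelial) at 7.99 ± 1.10. Cd8b1 thus made up most of the CD8 and NK sum, while Cd8a stood at 0.187 ± 0.0869 TPM. In such bulk samples, fewer cells of a type and less RNA per cell cannot be told apart.

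Nearly the whole set was expressed. Of the 10 members, 9 reached a TPM of 1 in all 4 libraries, against 22.9% of all genes and 47.2% of protein-coding genes in the tables. The exception was Foxp2. Foxp3 was the most abundant member in every library and Foxo4 the least abundant of those expressed, and the 9 spanned 36.9 to 289 TPM on average. All 9 lay above the median of 28.6 TPM over the 11593 genes expressed.

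**Figure D1:**
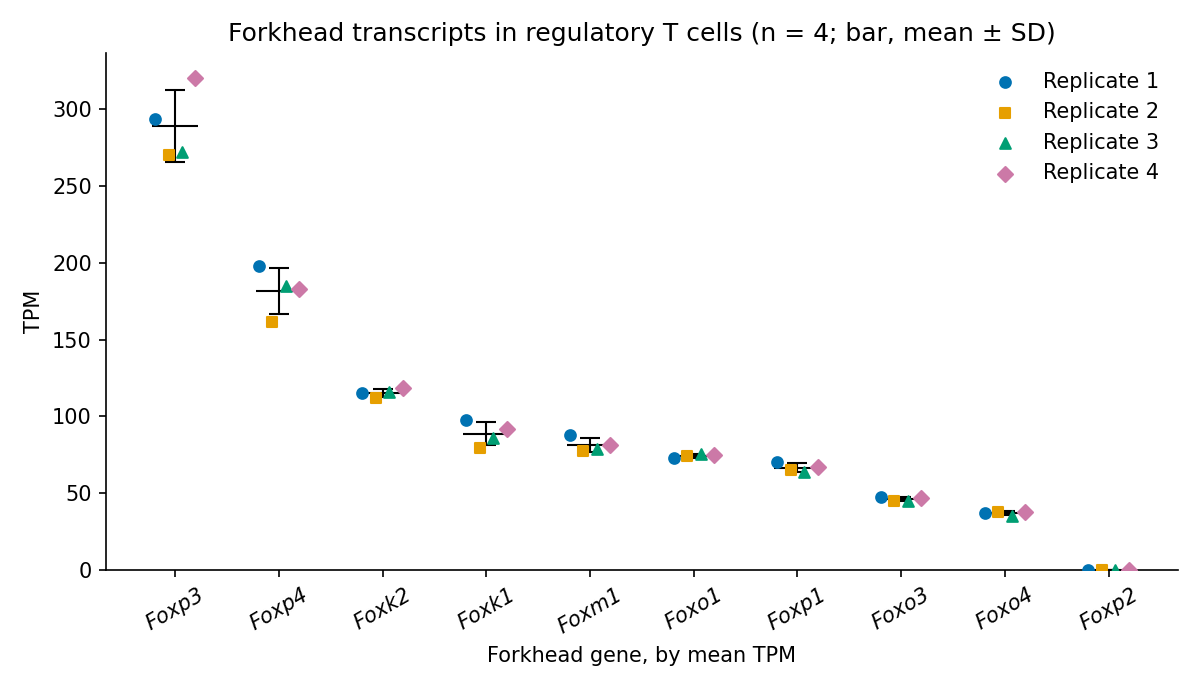
TPM (vertical axis, from 0) of the 10 forkhead genes in the 4 libraries, ordered by mean. Points are single libraries and bars the mean ± SD. Foxp3 lies between 269.9 and 320.4 TPM, above every library of Foxp4, and Foxp2 lies at or near 0.

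Foxp3 (ENSMUSG00000039521.12, chromosome X, 7579676 to 7595243, plus strand) was counted 14788, 18560, 23506 and 19254 times in replicates 1 to 4. Divided by its 3989 bases of exon, this gave 294, 269.9, 272 and 320.4 TPM, a mean of 289 ± 23.5. Replicates 1 and 4 were above the mean and replicates 2 and 3 below it, with the highest library 1.19 times the lowest. Foxp3 ranked 607 among the 11593 genes expressed and 591 among the 10274 that encode proteins, so 94.8% of expressed genes were lower.

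The gene lies on the X chromosome. Both the lowest and the second highest value of Foxp3 were in the libraries with Xist above 100 TPM. The part of these transcripts in the level of Foxp3 was not tested, and no groups were formed from them.

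Flicr, a noncoding RNA gene that begins upstream of Foxp3 on the same strand, shares 267 bases of exon with it, which is 6.69% of the Foxp3 exon length. Fragments in a shared stretch count for neither gene under the settings recorded in the file headers. Flicr itself had 95, 127, 187 and 115 counts, or 2.18 ± 0.161 TPM. A further 14.8% of Foxp3 exon bases lie opposite a gene on the other strand, which stranded counting keeps apart.

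Foxp4 (ENSMUSG00000023991.16, chromosome 17, 47867133 to 47924645, minus strand) was the second most abundant member. This Foxp factor is made in several tissues and is known from lung and gut development as well as from T cells. It stood at 198, 161, 185 and 183 TPM, a mean of 182 ± 15.1, and ranked 1065 among expressed genes. Replicate 2 was the lowest library, as for Foxp3, but the highest was replicate 1, where that of Foxp3 was replicate 4. Within a library Foxp3 exceeded Foxp4 by 1.60 ± 0.140 times, with ratios of 1.48, 1.67, 1.47 and 1.75.

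Foxp1 (ENSMUSG00000030067.17, chromosome 6, 98925338 to 99522721, minus strand), which keeps naive T cells quiescent, stood at 70.4, 65.2, 63.9 and 66.8 TPM, a mean of 66.6 ± 2.78. It had 12220 to 19031 counts per library, close to the 12313 to 19709 of Foxp4, but its summed exons are 13751 bases long against 4926. The level per length therefore turned on the length used, as described further below. Gm20696 shares 300 bases, or 2.18% of the Foxp1 exon length, on the same strand and had at most 7 counts in a library, and the miRNA gene Gm49348 shares 135 bases and had 0 counts.

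Foxp2 (ENSMUSG00000029563.16, chromosome 6, 14901349 to 15441977, plus strand), a factor best known from the developing brain, had 4, 0, 0 and 1 counts, or 0.0194, 0, 0 and 0.00406 TPM. A count of 0 allows up to 3 counts, which for this gene is at most 0.0145 TPM in any library and covers counting error only. In replicates 2 and 3, where Foxp2 was not counted at all, Foxp3 was at least 25350-fold higher than that floor, Foxp1 at least 6127-fold and Foxo4 at least 3562-fold. Foxp2 was thus at or near 0 in all libraries. Together the 4 Foxp genes summed to 562, 496, 521 and 569.9 TPM, a mean of 537 ± 34.6, which is 49.1 ± 0.82% of the TPM of all 44 forkhead genes.

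The 3 Foxo genes stood closer to each other and varied little. Foxo1 (ENSMUSG00000044167.6, chromosome 3, 52268336 to 52353221, plus strand), which in regulatory T cells is known for its part in their function and homing, stood at 72.6, 73.9, 75.2 and 74.7 TPM. Its mean of 74.1 ± 1.11 had the smallest coefficient of variation (SD over mean) of the 10 members, 1.504%, and the 4 libraries are hard to tell apart on the plot of levels. Foxo3 (ENSMUSG00000048756.11, chromosome 10, 42181841 to 42276755, minus strand), which overlaps with Foxo1 in function, stood at 47.6, 45.2, 45.2 and 47.2 TPM, a mean of 46.3 ± 1.31. Foxo4 (ENSMUSG00000042903.8, chromosome X, 101254528 to 101260873, plus strand) stood at 37.0, 37.9, 35.2 and 37.6 TPM, a mean of 36.9 ± 1.21.

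The order Foxo1 over Foxo3 over Foxo4 was seen in all 4 libraries without overlap. Foxo1 had 1.60 ± 0.0620 times the TPM of Foxo3 and 2.01 ± 0.0861 times that of Foxo4, and Foxo3 had 1.25 ± 0.0446 times that of Foxo4. Summed, the Foxo genes reached 157 ± 1.58 TPM, or 14.4 ± 0.639% of forkhead TPM, and Foxp3 alone had 3.90 ± 0.324 times the level of Foxo1. Foxo4 is X-linked like Foxp3, and the libraries with high Xist held its highest value and one in the middle. For Foxo1, 7.78% of exon bases lie opposite another gene.

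Foxk2 and Foxk1, factors known for their roles in the control of autophagy and glycolysis genes, took the places after Foxp3 and Foxp4. Foxk2 (ENSMUSG00000039275.9, chromosome 11, 121259990 to 121309896, plus strand) stood at 115, 112, 116 and 118 TPM, a mean of 115 ± 2.53. Foxk1 (ENSMUSG00000056493.9, chromosome 5, 142401497 to 142462011, plus strand) stood at 97.3, 79.6, 86.0 and 91.8 TPM, a mean of 88.7 ± 7.63. The 2 genes did not overlap, since the lowest Foxk2 library lay above the highest Foxk1 library. Foxk2 had 1.31 ± 0.0957 times the TPM of Foxk1, and their sum was 204 ± 9.42 TPM, 18.6 ± 0.183% of forkhead TPM. Foxk1 had the largest coefficient of variation of the 9 expressed members, 8.60%, and Foxk2 one of the smallest, 2.19%.

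Foxm1 (ENSMUSG00000001517.14, chromosome 6, 128362967 to 128376146, plus strand) stood at 87.7, 77.3, 79.0 and 81.1 TPM, a mean of 81.3 ± 4.55, with replicate 1 the highest. It held 7.43 ± 0.235% of forkhead TPM and ranked 2587 among expressed genes. Tex52 shares 144 bases of Foxm1 exon on the same strand (2.503%) and had 1 to 17 counts per library, and Gm44596 shares 97 bases and had 0 counts.

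The order of the 9 expressed members was then tested between neighbours, on the log2 ratio of TPM within each library. From the top it ran Foxp3, Foxp4, Foxk2, Foxk1, Foxm1, Foxo1, Foxp1, Foxo3 and Foxo4. In each of the 8 pairs the higher gene was higher in 4 of 4 libraries. The order was taken from the mean TPM of these same libraries, which favours such agreement. In an exact permutation test (two-sided, flipping the sign of the log2 ratios) every pair had p = 0.13, 2 of the 16 sign patterns, also after Benjamini-Hochberg adjustment over the 8. No smaller p is possible with 4 libraries, so no pair could pass 0.05. The largest steps were Foxp3 over Foxp4 at 0.67 ± 0.13 (SD), Foxp4 over Foxk2 at 0.65 ± 0.11 and Foxp1 over Foxo3 at 0.52 ± 0.03 on the log2 scale. The smallest were Foxk1 over Foxm1 at 0.12 ± 0.06, Foxm1 over Foxo1 at 0.13 ± 0.10 and Foxo1 over Foxp1 at 0.16 ± 0.08. Foxk1 and Foxm1 were the only neighbours whose TPM ranges overlapped across libraries.

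The steps in the middle of this order depended on gene length. With the longest protein-coding transcript in place of the summed exons, Foxp1 rose from the seventh to the third place at 92.7 ± 4.05 TPM, since its longest transcript has 7177 bases and the ratio of both lengths is 1.92. All other expressed members fell, because TPM is a share of a total that this choice also changes: Foxp3 to 218 ± 17.8 TPM, Foxp4 to 163 ± 13.8 and Foxk2 to 87.5 ± 1.92. Foxo1 over Foxp1 then turned from 0.16 to -0.78 and Foxk1 over Foxm1 from 0.12 to -0.16 on the log2 scale, both with p = 0.13 in the exact permutation test, while the other 6 neighbouring pairs kept their direction. The ratio of Foxp3 to Foxp1 moved from 4.34 ± 0.308 to 2.36 ± 0.167, so the first and second place, Foxp3 and Foxp4, and the last places, Foxo3 and Foxo4, were the same with both lengths, and the distance to Foxp1 was not.

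**Figure D2:**
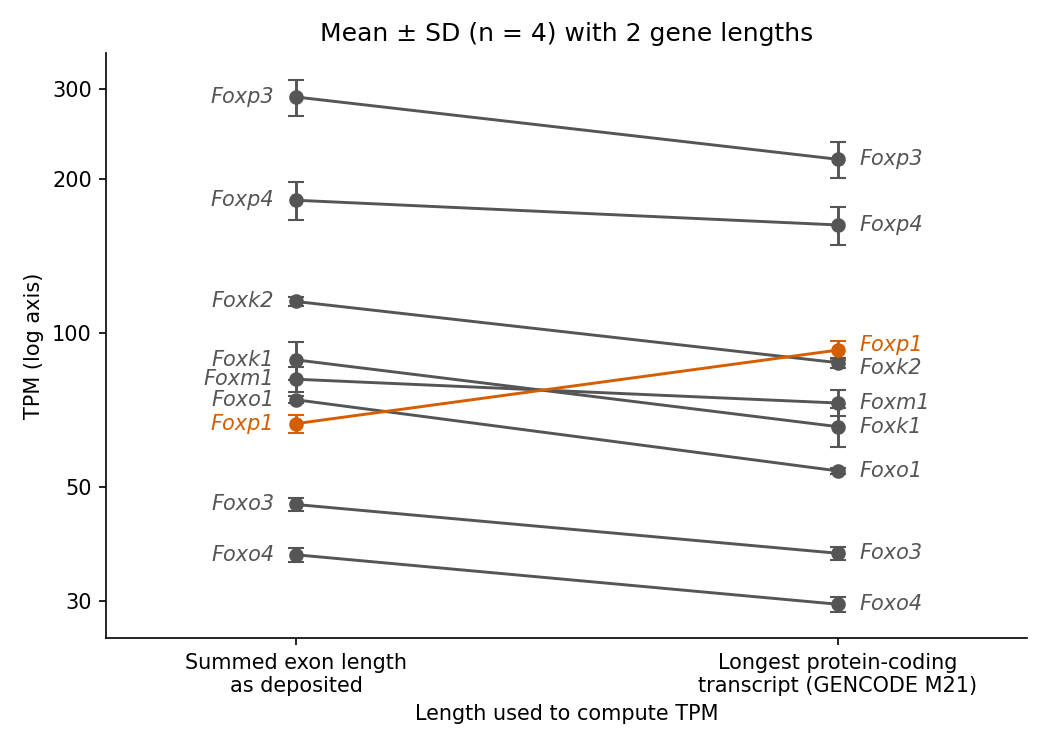
Mean TPM ± SD of 4 libraries (vertical log axis) for the 9 expressed members with 2 lengths: summed exons as deposited (left) and longest protein-coding transcript (right). Lines join the same gene, and Foxp1, in orange, crosses from 66.6 to 92.7 TPM while the other members fall.

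Foxp3 held 26.4 ± 1.21% of the TPM of all 44 forkhead genes, Foxp4 16.6 ± 0.876%, Foxk2 10.6 ± 0.371% and Foxk1 8.10 ± 0.337%. The share of Foxp3 was 23.6% with the longest transcript length and 17.5% of forkhead counts not divided by length. Foxp1 held 6.09 ± 0.200% of TPM and 13.9% of counts. Together the 10 members held 89.6 ± 0.146% of a forkhead total that ran from 1031 to 1139.5 TPM per library.

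Of the other 34 forkhead genes, 4 were expressed, of which 3 lay below every expressed member. Foxn3, a repressor linked to the cell cycle checkpoint, stood at 43.6, 37.5, 36.3 and 41.2 TPM, a mean of 39.7 ± 3.35, and its range overlapped that of Foxo4. Foxn2 stood at 27.4 ± 0.625, Foxj3 at 23.6 ± 0.341 and Foxj2 at 18.7 ± 1.63. In the remaining 30 the values were low: 18 had 0 counts in every library, against a floor of at most 0.274 TPM, 8 had counts but never a TPM of 1, and 4 reached it in some libraries only. With a TPM threshold of 0.5 the number expressed was 7 instead of 4. Expression was thus recorded for 9 of 10 members and 4 of 34 other forkhead genes. Since the members were chosen with earlier results of these data known, this difference may follow from the choice.

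Each replicate was set against the other 3 to see whether a member stood apart in 1 library, with edgeR's quasi-likelihood test over 12917 genes. Foxp2 did not pass the filter on low counts, so 9 members were tested. None of the 9 passed a Benjamini-Hochberg adjusted p of 0.05 in edgeR in any of the 4 comparisons, in which 0.0697%, 0%, 0.0232% and 0% of all genes passed for replicates 1 to 4. DESeq2 called 0 of the 8 to 10 members it tested, beside 0.226%, 0.684%, 0.0227% and 0% of all genes it tested, and lower alone 0.113%, 0.66%, 0.00908% and 0%. The lowest adjusted p of a member in edgeR was 0.485 in replicate 1, and over all alternatives it was 0.0620, in replicate 1 with replicate 4 left out. Unadjusted p-values in edgeR fell below 0.05 for 2, 2, 0 and 1 of the 9 members in replicates 1 to 4, and for 9.31%, 6.78%, 2.31% and 2.49% of all genes tested.

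The values behind these counts were small. In replicate 1, Foxk1 lay 0.18 above the others on the log2 scale (SE 0.08) and Foxm1 0.14 (SE 0.07). In replicate 2, Foxp4 fell by 0.22 (SE 0.08) and Foxk1 by 0.20 (SE 0.08). In replicate 4, Foxp3 lay 0.20 above the others (SE 0.09). Their unadjusted p-values ran from 0.0159 to 0.0443 in edgeR, and their adjusted p-values from 0.485 to 1. Each comparison sets single libraries side by side and assumes that the lone library varies like the rest.

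**Figure D3:**
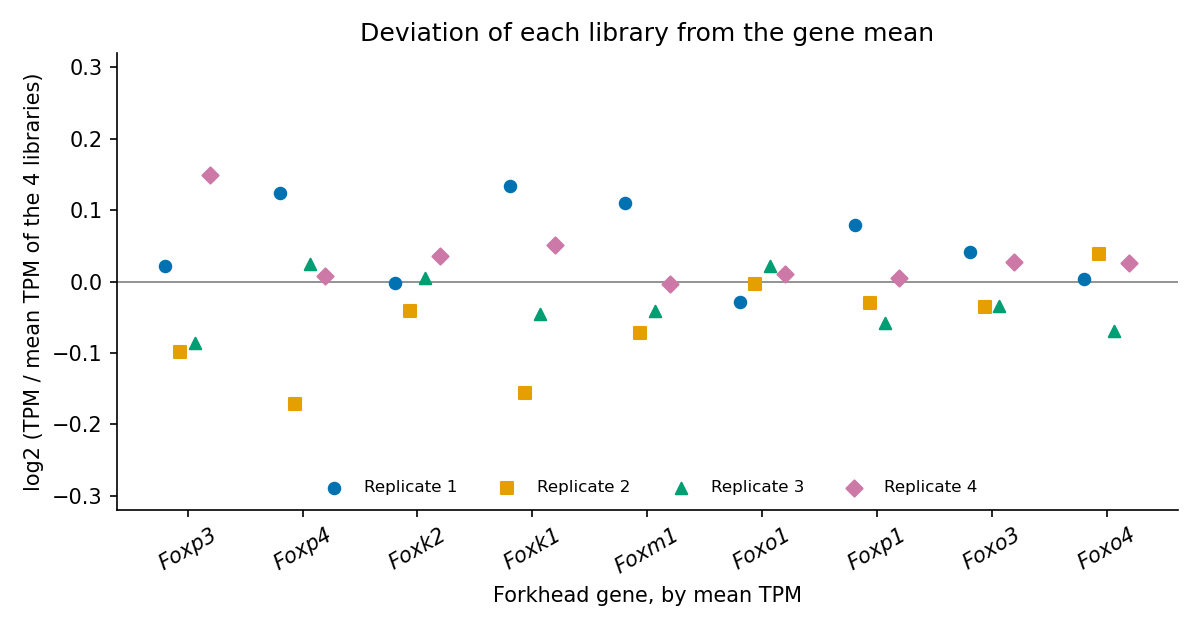
Deviation of each library from the mean of the 4, as log2 of TPM over mean TPM (vertical axis), for the 9 expressed members. Foxk1, Foxp4 and Foxp3 spread most, and the points of Foxo1 lie within 0.05 of 0.

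The spread beyond counting error was read as edgeR's biological coefficient of variation, fitted over all 4 libraries with an intercept only. Foxp3 had 7.55%, Foxp4 7.19% and Foxk1 6.51%. The trend that edgeR fitted at their levels was 7.48%, 6.93% and 6.01%. Among the 500 genes nearest to each in level, 91.0%, 89.8% and 91.2% had a smaller value. These members thus varied more between libraries than most genes of like abundance, though their distance from the trend was small. Foxo4 at 5.88%, Foxo3 at 5.01%, Foxo1 at 5.32% and Foxk2 at 5.17% lay on the other side, with 14.2%, 16.2%, 24.4% and 25.4% of such genes below them. Foxp1 at 6.52% and Foxm1 at 5.28% were in between, at 45% and 68.6%. These are positions among genes in this fit only and carry no test, and the common value over all genes was 8.52%. Under the alternatives only the values were compared, between genes of different level, and the positions were not computed again. Without the filter on low counts Foxo4 had 7.212%, above Foxp3, Foxp4 at 6.895% and Foxk1 at 6.698%, while with the filter it was below them. Foxo1, Foxo3 and Foxk2 stayed below Foxp3, Foxp4 and Foxk1 there. With any replicate left out, Foxp3, Foxp4 and Foxk1 stayed above the Foxo genes and Foxk2. Without replicate 1, Foxk1 had 6.892% and Foxo1 6.621%.

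**Figure D4:**
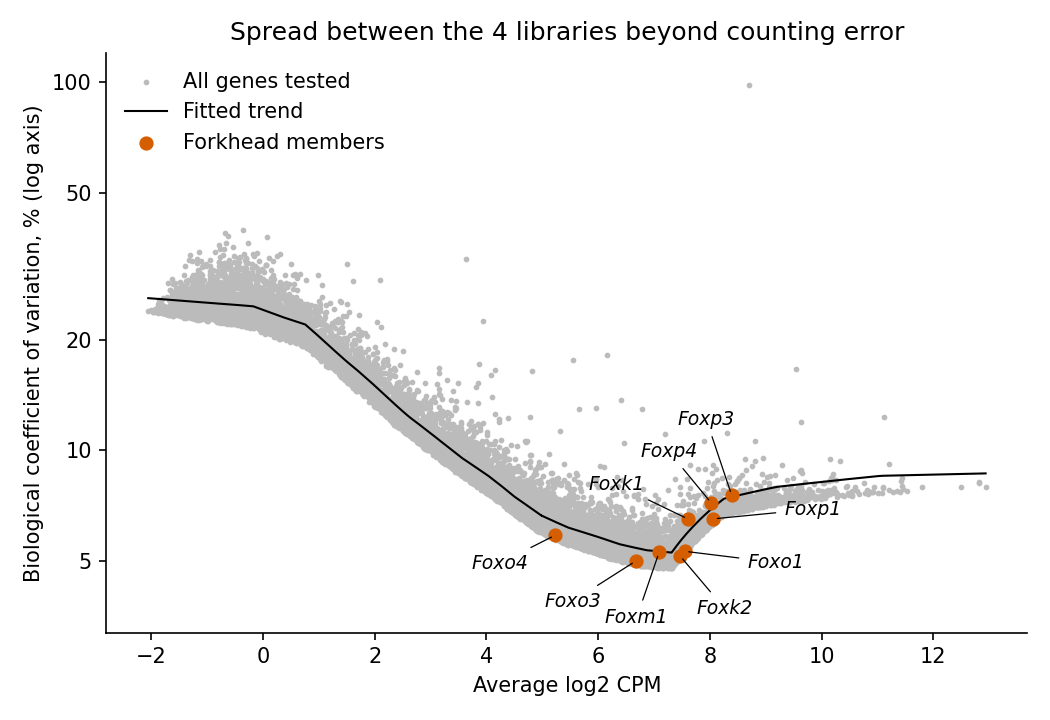
Biological coefficient of variation in percent (vertical log axis) against average log2 CPM for the 12917 genes tested (grey), with the fitted trend (line) and 9 forkhead members (orange). Foxk1, Foxp4 and Foxp3 lie at or above the trend, Foxm1 close to it, and Foxo1, Foxo3, Foxo4, Foxk2 and Foxp1 below it.

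Genes known to act with these factors were taken from 10 lists, some of which share members. Their levels are given as counts and medians beside the median of 0.691 TPM over all protein-coding genes, of which 47.2% were expressed. This is a lower mark than the median of 28.6 TPM over expressed genes used for the members. Of 23 partner proteins of Foxp3, 22 were expressed, with a median of 95.7 TPM. The antigen-receptor induced factor Irf4 led at 773 ± 26.02, followed by Tcf7, which encodes the factor TCF1, at 599.7 ± 11.1 and the deacetylase Hdac7 at 447 ± 44.6. The deacetylase gene Hdac9 was the lowest at 0.0102 ± 0.0144. All 23 genes of factors and chromatin enzymes that act on the Foxp3 locus were expressed, with a median of 67.1 TPM. The orphan nuclear receptors Nr4a1 at 738 ± 68.96 and Nr4a3 at 370.0 ± 26.7 and the maintenance DNA methyltransferase Dnmt1 at 372 ± 24.6 led, and the methylcytosine oxidase Tet1 was the lowest at 2.03 ± 0.209.

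Of the 17 enzymes that modify the Foxp3 protein, 14 were expressed, with a median of 53.5 TPM. The kinases Pim1 and Pim2 stood at 405 ± 20.1 and 237 ± 19.9 and the arginine methyltransferase Prmt5 at 227 ± 14.02. Hdac9, held by this list too, was again the lowest. Genes known as repressed by Foxp3 had a lower median of 16.0 TPM, and 6 of 8 were expressed. The kinase gene Zap70 at 251 ± 10.8, the phosphatase gene Ptpn22 at 45.7 ± 1.397 and the chromatin organiser Satb1 at 22.1 ± 0.529 were the highest, and the cytokine gene Il4 was the lowest at 0.286 ± 0.339. No cells without Foxp3 were measured, so these levels do not show repression. Of 15 corepressor genes linked to Foxp factors, mainly of the nucleosome remodelling and deacetylase complex, 14 were expressed, with a median of 173 TPM. Rbbp7 at 539.9 ± 24.2, Chd4 at 422 ± 26.03 and Mta2 at 343 ± 9.96 led, and Ctbp2 was the lowest at 0.362 ± 0.0455.

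Regulators of the Foxo factors were all present, with 29 of 29 expressed at a median of 76.2 TPM. The 14-3-3 proteins that bind phosphorylated Foxo led through Ywhae at 893 ± 43.5 and Ywhab at 381 ± 9.04, with the arginine methyltransferase Prmt1 at 399.6 ± 7.89, and the kinase Sgk3 was the lowest at 3.65 ± 0.281. Known Foxo target genes were lower, with 19 of 21 expressed and a median of 22.01 TPM. The inhibitory receptor Ctla4 stood at 444 ± 27.4, the homing receptor Ccr7 at 355 ± 7.20 and the catalase gene Cat at 98.5 ± 0.926. The recombinase gene Rag2 was never counted (floor of 0.0694 TPM).

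All 20 regulators of Foxm1 and all 17 of its known targets were expressed, with medians of 62.8 and 134 TPM. Among the regulators, Cdk4 at 393 ± 17.6, E2f4 at 386 ± 28.4 and the mitotic kinase Plk1 at 317 ± 20.7 were the highest, and Lin52, a subunit of the complex that recruits Foxm1, was the lowest at 12.4 ± 1.29. Among the targets, the anaphase activator Cdc20 at 508 ± 22.9, Plk1 again and Cks1b at 298 ± 17.4 led, and the ubiquitin ligase subunit Skp2 was the lowest at 14.9 ± 1.33. All 17 partners of the Foxk factors were expressed, with a median of 58.8 TPM, from the host cell factor Hcfc1 at 319.9 ± 36.6, the kinase Gsk3a at 224 ± 6.36 and the deacetylase Hdac1 at 168 ± 8.89 down to Mbd5 at 4.18 ± 0.194.

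**Figure D5:**
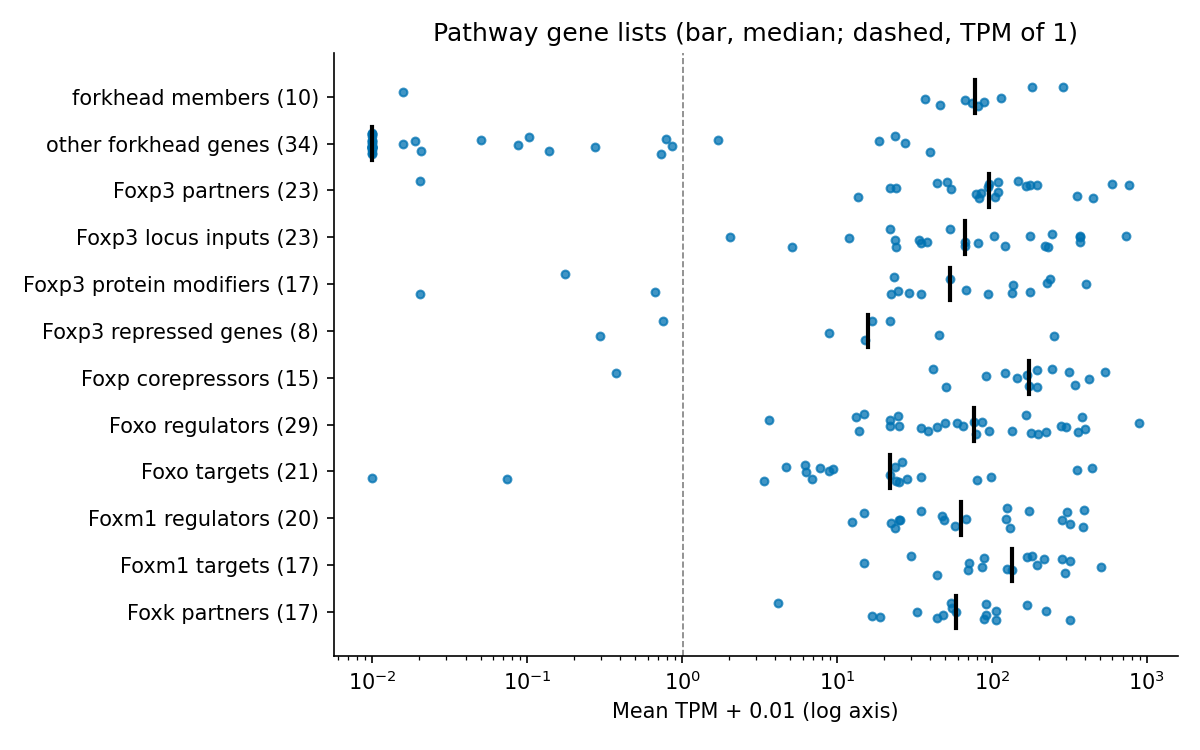
Mean TPM + 0.01 (horizontal log axis) of each gene in 12 lists, with the number of genes in brackets, the median as a black bar and a TPM of 1 as a dashed line. The other forkhead genes gather at or near 0, while every gene of the Foxo regulators, Foxm1 regulators, Foxm1 targets, Foxk partners and Foxp3 locus inputs lies to the right of the line.

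Of the 168 different genes in these 10 lists, 162 could be tested between replicates. In edgeR, 0 were higher and 0 lower at an adjusted p of 0.05 in each of the 4 comparisons. At an unadjusted p below 0.05, edgeR gave 24, 20, 2 and 1 of the 162 in replicates 1 to 4, beside the shares of all genes given above. DESeq2 called 3 of the 114 it could adjust in replicate 2, all lower, where 27 of its 28 calls over all genes were lower (0.66% of 4092 tested). They are named here after their values were seen: Kmt2d fell by 0.44 on the log2 scale, Tet3 by 0.33 and Hcfc1 by 0.29, with adjusted p-values of 0.000361, 0.00946 and 0.0328 in DESeq2 and 0.325, 0.370 and 0.590 in edgeR.

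For 3 members the protein-coding genes with the most similar values were found by the Euclidean distance of log2 TPM over the 4 libraries, among 10273 expressed genes. Nearest to Foxp3 were the diacylglycerol kinase Dgkz at a distance of 0.0726, the focal adhesion protein Parvg at 0.113 and the nucleoporin Nup62 at 0.115. Dgkz stood at 303, 276, 276 and 312 TPM, so like Foxp3 it was highest in replicates 1 and 4. Nearest to Foxp1 were Ilf2, Imp4 and Pigq at 0.0344 to 0.0477, and nearest to Foxo1 were Pak1ip1, E2f2 and Pafah1b1 at 0.0388 to 0.0408. With 1 cell type and 4 libraries, this measure mainly finds genes of like level.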

How the data were processed

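The authors counted fragments per gene in each of 4 libraries with featureCounts 1.4.6-p4 on mm10 alignments with GENCODE M13, per the file headers. These deposited raw counts took paired fragments with both ends aligned, stranded in reverse, over exons. Fragments with several alignments, or in exons shared by genes of the same strand, were not requested, so close copies can be undercounted. The sources used here do not give the aligner, and the labels name total RNA while the linked library protocol is named for polyadenylated RNA. The deposited exon length of each gene was used to compute TPM here. Symbols for 50376 of 50600 genes, gene types, transcripts and sequences came from GENCODE M21, also on mm10. The 224 unnamed genes took up to 0.00963% of a library's counts and stayed in the totals. Depth was 43821767 to 73819468 counts per library, and a count of 0 was given a floor of 3 counts, for counting error only.

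Neighbouring levels were tested by an exact sign-flip permutation test, and replicates by edgeR 4.0.16 (TMM, filterByExpr, quasi-likelihood, Benjamini-Hochberg at 0.05, R 4.3.3), with DESeq2 1.42.0 as an alternative. The edgeR step was tested on simulated data. Other alternatives were TPM thresholds of 0.5 and 5, FPKM, other lengths, no filter, median-of-ratios scaling and leaving out each replicate. The genes named by rule were all 10 members, the other forkhead genes expressed, the 3 highest and the lowest of each list, the 3 nearest genes of Foxp3, Foxp1 and Foxo1, and genes sharing exon bases. Parts of the sequence and nearest-gene results are not reported here. Cell type markers and sex-linked genes came from marker lists, and the few named from them, with Kmt2d, Tet3, Foxj1 and Foxo6, were picked after their values were seen. The members and lists were chosen with earlier results of these data known.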

Additional observations from a re-analysis of the deposited data

How the results depend on the processing

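No paired analysis was possible because the 4 libraries form 1 group. All 9 expressed members stayed expressed under the TPM thresholds, FPKM and longest transcript length and with each replicate left out, and 0 members were called in any of the 24 alternative settings of the replicate tests. With a TPM threshold of 0.5, 7 other forkhead genes were expressed instead of 4. With the longest transcript length, Foxk1 over Foxm1 turned to -0.16 and Foxo1 over Foxp1 to -0.78 on the log2 scale, and the share of Foxp3 was 23.6%, against 17.5% in counts not divided by length. Leaving out a replicate turned no neighbouring pair and moved no member's level by more than its SD. The counts of all genes called were small and moved with the setting, and the cause was not tested. Without the filter on low counts they were 105, 60, 35 and 16 for replicates 1 to 4, and with DESeq2 16, 28, 5 and 0. Leaving out another replicate gave 23 to 341 genes for replicate 1 (341 without replicate 4), 3 to 52 for replicate 2, 16 to 21 for replicate 3 and 2 to 9 for replicate 4, against 9, 0, 3 and 0 with all libraries. With 4 libraries of 1 group, no neighbouring pair could reach a p below 0.13, or 0.25 with 3.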

Other observations

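The exon junction inside the stretch of the DNA-contacting helix was also looked for in the other forkhead genes, chosen after the sequences of the members had been read. The motif searched for was the residues of the marked codons, preceded by asparagine, then alanine or serine, then isoleucine, valine or leucine. Of the 34, 26 had this motif. In 4 of these (Foxj1, Foxj2, Foxj3 and Foxo6) a junction lay at the same place, while in 22 no junction fell in the stretch. The 8 genes without the motif were not searched for a junction. Foxj2 and Foxj3 were expressed, at 18.7 ± 1.63 and 23.6 ± 0.341 TPM, and Foxj1 and Foxo6 were not, at 0.264 ± 0.0806 and 0.00883 ± 0.0177. Foxn2 and Foxn3, the other expressed genes outside the 10 members, had no junction there. These are counts over a family of related genes, and no test was made.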
